A study of Mus musculus with 10 samples.

Results

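Carbonic anhydrases are the enzymes that glaucoma drugs such as acetazolamide and dorzolamide inhibit. The 8 genes Car2, Car4, Car8, Car9, Car11, Car12, Car13 and Car14 were followed in the mouse optic nerve head, the short stretch through which the axons of retinal ganglion cells pass out of the eye. They were represented by the 11 probe sets whose annotated gene symbol was exactly one of these names, out of 22626 probe sets and 12393 genes measured. Car4, Car8 and Car13 had 2 probe sets each. The tissue came from male C57Bl/6 mice aged 6 to 8 weeks, with no transgene or drug named in the labels. In the high IOP group, intraocular pressure (IOP) of the right eye was held at 30 mmHg for 1 h by saline through a glass micropipette in the anterior chamber. The nerve head was taken 3 days after this surgery. The control group was the left eye, which had no operation, so body side, cannulation and pressure cannot be told apart. Each array held RNA of 2 pooled nerve heads, and there were 5 arrays per group from 10 mice.

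Carbonic anhydrases interconvert carbon dioxide and bicarbonate at a zinc ion held in the active site. Car2 and Car13 act in the cytosol, whereas Car4, Car9, Car12 and Car14 face the outside of the cell, and Car8 and Car11 are related proteins that lack the catalytic activity. In the eye the enzymes are known for aqueous humour secretion by the ciliary epithelium and for fluid and bicarbonate transport across the retina and its pigment epithelium, and in white matter Car2 is known as an enzyme of oligodendrocytes.

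All values are probe set signals, intensities on a linear scale without a physical unit. The array medians lay between 414 and 475. Markers of astrocytes and myelin were bright: Gfap, the filament protein of astrocytes, read 10644 to 12631, and Mbp, a myelin protein gene, 13490 to 15433 over the 10 arrays. These genes alone cannot tell the nerve head from the nerve behind it. Marker lists of neighbouring tissue differed widely between arrays of 1 group: the summed signal of 17 photoreceptor genes spanned 5.66-fold, that of 7 melanin genes 4.03-fold and that of 7 genes of the retinal pigment epithelium 2.58-fold. The array of high IOP replicate 1 stood apart, with a mean correlation of 0.974 with the other arrays (0.986 to 0.989 for the rest) and a 3'/5' signal ratio of the Gapdh control probe sets of 2.07, against 1.53 to 1.73 for the rest.

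None of the 8 carbonic anhydrases differed between the groups beyond the spread of the arrays. By limma with Benjamini-Hochberg adjustment over all genes, 0 of the 8 passed an adjusted p of 0.05, where 0 of 12393 genes (0%) did, and 0 of the 8 had an unadjusted p under 0.05, against 492 genes (3.97%), 164 of them lower in high IOP tissue (1.32%). The adjusted p of the 8 ran from 0.849 to 0.998. In 0 of the 8 were the groups free of overlap, against 0.629% of all genes. The log2 fold change, high IOP minus control on the scale log2(signal + 16), was below 0 in 7 of 8 genes, with a median of -0.08, while 52.7% of all genes were below 0 and their median was -0.01. High IOP replicate 1, the array with the lowest median (414), was the lowest for Car2, Car8, Car9 and Car14. Without it Car8 (0.03) and Car14 (0.01) stood above 0 and Car13 (-0.01) below. Car2, Car4, Car9, Car11 and Car12 stayed below 0. Whether the 8 genes moved as a set was not tested. Over the 11 probe sets, 9 were below 0, 0 had an unadjusted p under 0.05 (4.44% of all probe sets did) and 0 passed the adjusted test (0% of 22626). For 6 of 8 genes the interval (95% confidence) stayed inside a 1.5-fold change either way, against 76.8% of all genes, and for the same 6 inside a 2-fold change, against 95.5%. The former count rested on the 16 added to dim signals: with 1 added, 4 of 8 stayed inside a 1.5-fold change (63.2% of all genes), without Car4 and Car9. Car2 and Car12 were the exceptions, with intervals that reached past 2-fold. Bulk signals do not separate fewer cells of a type from less RNA per cell.

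**Figure D1:**
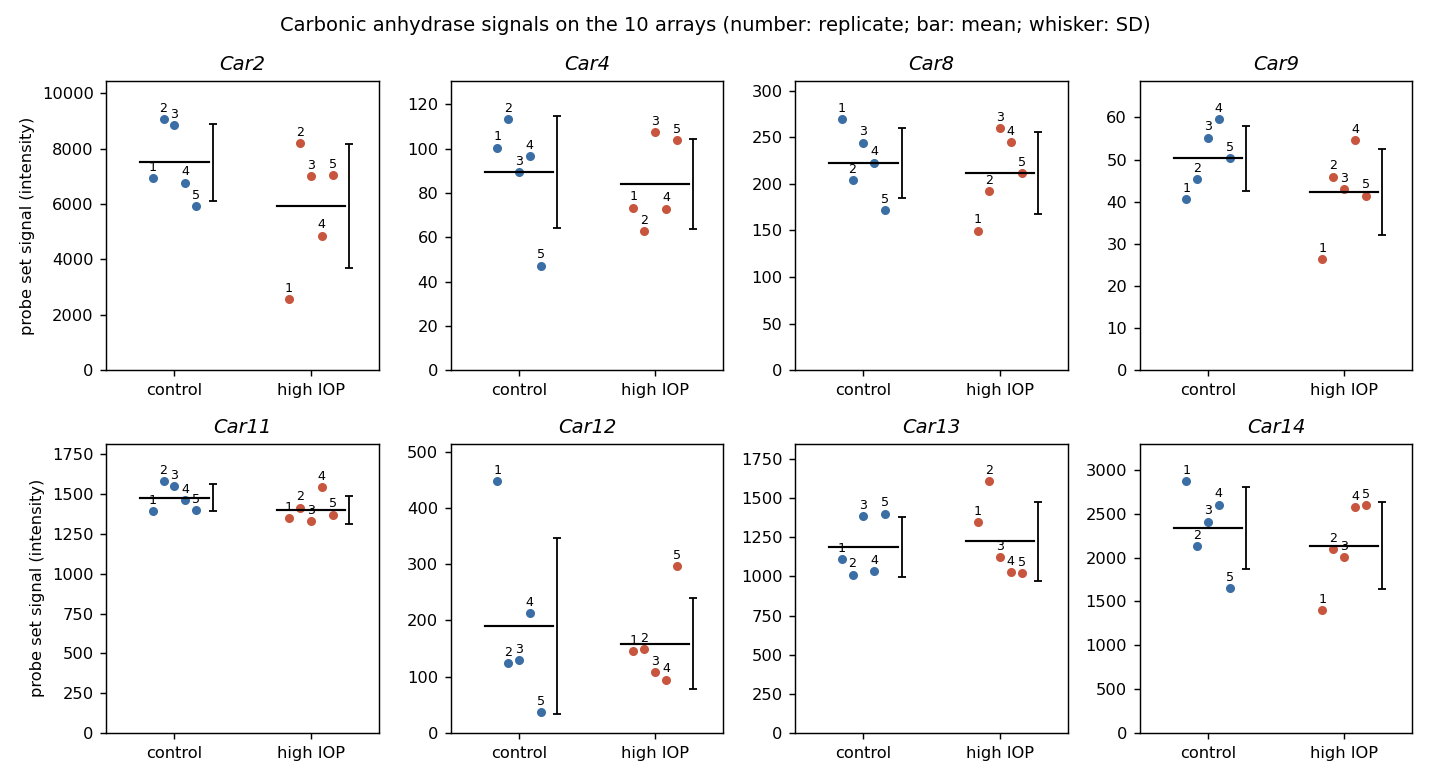
Signal (linear intensity, vertical axis from 0) of the brightest probe set of each gene on the 5 control and 5 high IOP arrays, with the replicate number above each point, the mean as a bar and the SD as a whisker. The groups overlap in all 8 panels; Car2 has its lowest point at 2570.1 on high IOP replicate 1 and Car12 runs from 37.4 to 447.

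**Figure D2:**
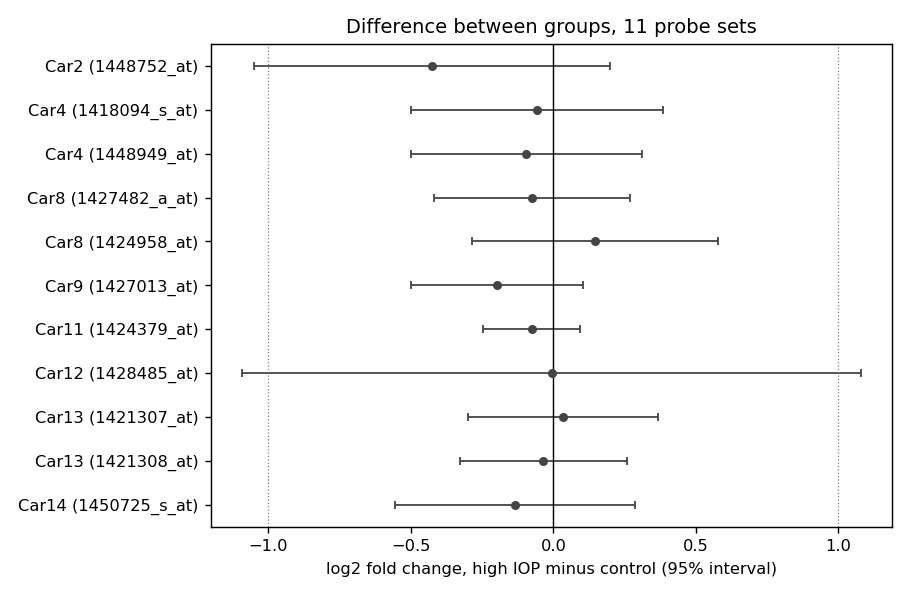
Log2 fold change (high IOP minus control, horizontal axis) of the 11 probe sets, with 95% confidence intervals from the limma fit over all probe sets; dotted lines mark a 2-fold change. Every interval includes 0, and those of Car2 and Car12 are the only ones past a dotted line.

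Car2, the fast cytosolic enzyme, gave the largest negative difference of the 8, and much of it lay on 1 array. Its signal (1448752_at) was 6931, 9083, 8844, 6779 and 5914 on control replicates 1 to 5 and 2570.1, 8204, 7018, 4859 and 7044 on high IOP replicates 1 to 5. High IOP replicate 1 was the lowest of all arrays and replicate 4 the next, while the other high IOP arrays lay among the controls. The control mean was 7510.3 ± 1385 (SD, n = 5) and the high IOP mean 5939 ± 2238 (SD, n = 5), whereas the medians were 6931 and 7018. This gave a log2 fold change of -0.43 (95% interval -1.06 to 0.20, limma adjusted p = 0.849), and -0.15 without high IOP replicate 1. Its spread within groups was larger than that of 94.1% of all genes.

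Car2 followed the genes of myelinating oligodendrocytes from array to array. The score of 13 measured myelin genes (the mean of their log2 deviations, Car2 not among them) was 0.40 and 0.43 on control replicates 2 and 3, where Car2 was highest, and -0.88 on high IOP replicate 1, where Car2 was lowest. Over the 10 arrays Pearson's r was 0.977 (permutation p = 3.0e-05, adjusted p = 0.00168 over 112 pairs of a gene and a score) and Spearman's rho 0.952 (permutation p = 0.00013, adjusted p = 0.0146). Without the 2 arrays farthest from the median score r was 0.919, without high IOP replicate 1 alone it was 0.928, and with each array taken as its deviation from the group mean it was 0.974. No batch is named in the labels, so none could be split. Of the 13 myelin genes, 9 had an r over 0.9 with Car2, among them Ugt8a, an enzyme of myelin lipid synthesis (0.980), and Mog, a surface protein of myelin (0.979). Mbp and the transcription factor gene Nkx6-2 had the lowest values (0.312 and 0.221), and Mbp varied least, from 13490 to 15433.

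Of 6193 genes in the brighter part of the arrays, those most like Car2 over the 10 arrays were Adamts4, a secreted protease gene (r = 0.990), Ugt8a (0.980) and Mog (0.979). Here and for the other members, such genes were picked as the highest of 6193 values. With only 10 arrays, a high r can arise that way between unrelated genes, and these values were not tested. The myelin genes themselves had 12 of 13 values below 0 (median -0.31), where 52.7% of all genes were below 0, and 0 of the 13 passed the limma adjusted test or had an unadjusted p under 0.05. Most of the 13 varied together with Car2, so their signs are not separate observations. The myelin score was -0.88 on high IOP replicate 1, -0.19 to 0.18 on the other high IOP arrays and -0.18 to 0.43 on the controls. The summed signal of the myelin genes ran from 66732 to 89203 in control and from 52066 to 82117 in high IOP tissue. With the myelin score as a covariate the log2 fold change of Car2 was -0.05 (interval -0.27 to 0.16). This score had an r of 0.977 with Car2 on the same arrays and differed by -0.28 between groups, which fixed the smaller value. The part of myelin content in the Car2 difference was not tested. Car2 also ran against the Gapdh 3' to 5' ratio (r = -0.929, permutation p = 0.00465, adjusted p = 0.128; rho = -0.515, permutation p = 0.135), and without high IOP replicates 1 and 4 that r was -0.116. On deviations from the group means it passed (r = -0.916, permutation p = 0.00116, adjusted p = 0.0325; rho = -0.867, permutation p = 0.00205, adjusted p = 0.115), with an r of -0.632 without high IOP replicates 1 and 2. The part of RNA quality in the low Car2 signal of high IOP replicate 1 was not tested.

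Car13, the other cytosolic enzyme, was the only one of the 8 with a value above 0. Its brighter probe set (1421307_at) read 1112, 1011, 1387, 1032 and 1401 on the control arrays and 1346, 1606, 1123, 1025 and 1019.8 on the high IOP arrays. Control replicates 3 and 5 and high IOP replicates 1 and 2 were the higher arrays, and replicate 2 of the high IOP group was the highest. On the log2 scale Car13 differed by 0.03 (interval -0.30 to 0.37, limma adjusted p = 0.969), and the dimmer probe set (1421308_at, 436 to 723) stood at -0.04, with an r of 0.847 between the probe sets over the arrays. Car13 lies beside Car1, Car3 and Car2 in a cluster on chromosome 3, and over the 10 arrays its r with Car2 was -0.09 (permutation p = 0.833, adjusted p = 0.864 over 28 pairs; rho = -0.115, permutation p = 0.758). Its r with the adipocyte score was 0.754 (permutation p = 0.00686, adjusted p = 0.128; rho = 0.455, permutation p = 0.192), and 0.315 without control replicate 3 and high IOP replicate 2. The genes of this score were dim, with Cidec at 13.9 to 28.6, Lep at 19.7 to 39.9 and Lipe at 168 to 246. Whether they lay above background is unknown. With the score of 10 retinal ganglion cell genes, r of Car13 was -0.648 (permutation p = 0.0426, adjusted p = 0.341). Spearman's rho was -0.588 (permutation p = 0.0806), and r was -0.646 without control replicate 1 and high IOP replicate 4. The most similar patterns were those of Olfm1 (r = 0.890), Tmbim1 (0.830) and Cds2 (0.814).

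Car12, a transmembrane enzyme with its active site outside the cell, varied more than any other member. No difference between groups was called for it, though its interval reached past 2-fold either way. Its signal (1428485_at) was 447, 124, 129.8, 214 and 37.4 on control replicates 1 to 5 and 145, 148, 108, 94.6 and 297 on high IOP replicates 1 to 5. The highest and the lowest array were both controls, and whether the lowest signal lay above background is unknown. The means were 190.3 ± 156 (SD, n = 5) and 159 ± 80.7 (SD, n = 5), and the log2 fold change was -0.01 with an interval from -1.10 to 1.09 (limma adjusted p = 0.998). The sign was not stable: it was 0.04 after quantile normalization and 0.02 with equal array medians. Its spread within groups exceeded that of 99.3% of all genes.

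The Car12 signal varied with genes of the retinal pigment epithelium over the arrays. The score of the 7 measured genes was 1.09, 0.84 and 0.58 on control replicate 1, high IOP replicate 5 and control replicate 4, the arrays with the highest Car12 signals, and -1.36 on control replicate 5, the array with the lowest. Pearson's r was 0.983 (permutation p = 1.0e-05, the smallest that 100000 permutations can give; adjusted p = 0.00112 over the 112 pairs), and Spearman's rho was 0.915 (permutation p = 0.00053, adjusted p = 0.0297). It was 0.954 without control replicates 1 and 5, and 0.984 on deviations from the group means. The r was over 0.9 for 6 of the 7 genes: Rpe65 (0.971), Rgr (0.970), Ttr (0.947), Rrh (0.945), Rdh5 (0.940) and Lrat (0.922), which serve the visual cycle and retinol transport. Stra6, a retinol-binding protein receptor gene, had an r of 0.237. Rpe65, the isomerase that defines the pigment epithelium, ran from 87.5 to 2185 over the arrays.

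The r of Car12 with the score of melanin genes, which choroidal melanocytes also express, was 0.512 (permutation p = 0.124, adjusted p = 0.497; rho = 0.491, permutation p = 0.154), and 0.174 without control replicates 1 and 2. The difference between the correlations with these scores was not tested. The genes with the most similar pattern were Pon1, a serum esterase gene (r = 0.973), Rgr (0.970) and Ttr (0.947). The summed signal of the pigment epithelium genes ran from 11666 to 30095 in control and from 16271 to 26584 in high IOP tissue. With their score as a covariate, a fit added after seeing the data, the interval of the log2 fold change of Car12 narrowed to -0.33 to 0.17 around -0.08. This narrowing followed from the r of 0.983 between Car12 and the score on the same arrays.

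**Figure D3:**
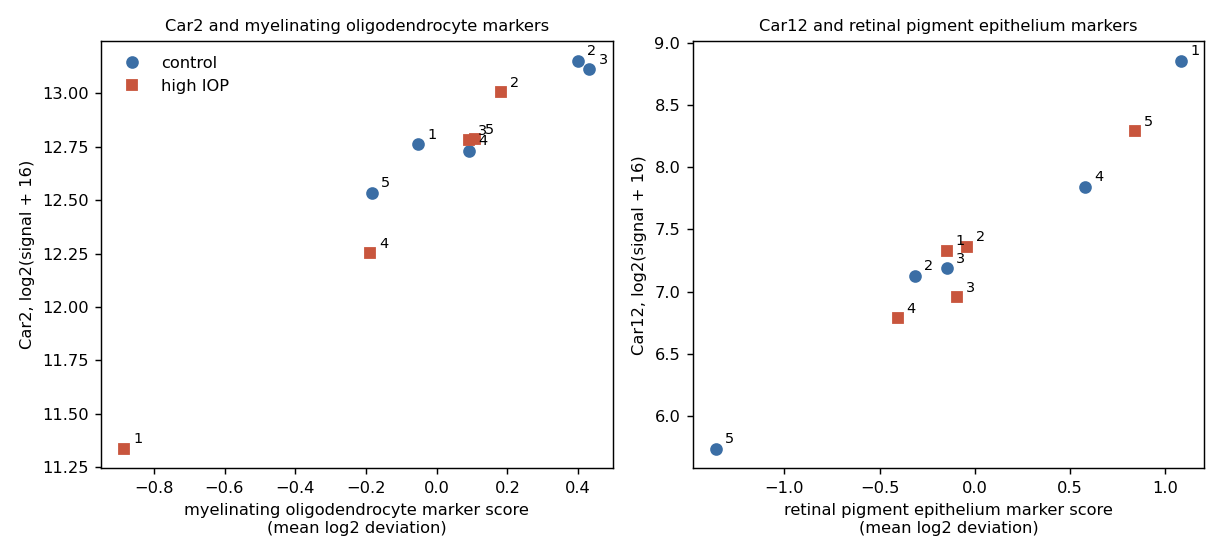
Left, Car2 on the scale log2(signal + 16) against the score of 13 myelinating oligodendrocyte genes; right, Car12 against the score of 7 retinal pigment epithelium genes. Points are arrays with their replicate number, circles control and squares high IOP; r is 0.977 in the left panel and 0.983 in the right.

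The window before the Car12 start site is shown because this gene followed the pigment epithelium so closely. RefSeq promoter windows (build GRCm38.p6) were at hand for 5 of the 8 genes, and the 250 bases before the start were searched on both strands for TCATGTG and CACGTG, letters bound by the melanocyte and pigment epithelium factor Mitf, and for TAATCC, bound by Otx2. CACGTG also holds the letters ACGTG. The motifs were chosen after the values were seen. These letters occur in 3.25%, 6.02% and 6.25% of all 32851 windows. The Car12 window, chr9:66713436-66713685 on the plus strand, held none of them.
Car12: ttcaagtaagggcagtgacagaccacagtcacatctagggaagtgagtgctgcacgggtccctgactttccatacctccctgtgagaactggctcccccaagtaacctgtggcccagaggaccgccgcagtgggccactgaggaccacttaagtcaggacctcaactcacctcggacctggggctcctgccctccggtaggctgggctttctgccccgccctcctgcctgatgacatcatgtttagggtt

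Car14, a transmembrane enzyme known in Müller glia and the pigment epithelium, read 2867, 2131, 2410.1, 2604 and 1651 on the control arrays and 1402, 2097, 2002, 2579 and 2598 on the high IOP arrays (1450725_s_at). The lowest arrays were high IOP replicate 1 and control replicate 5, and the others of both groups overlapped. Between groups it differed by -0.14 on the log2 scale (interval -0.56 to 0.29, limma adjusted p = 0.882), and 0.01 without high IOP replicate 1. Its r was 0.654 with the pigment epithelium score (permutation p = 0.0402, adjusted p = 0.341; rho = 0.636, permutation p = 0.0534) and 0.388 without control replicates 1 and 5. With the score of 7 Müller glia genes r was 0.350 (permutation p = 0.320, adjusted p = 0.716; rho = 0.394, permutation p = 0.264). The genes most like it were Txndc9 (r = 0.926), Nme7 (0.907) and Hprt (0.90). Its r with the score of 12 microglia genes was 0.790 (permutation p = 0.00647, adjusted p = 0.128; rho = 0.576, permutation p = 0.0893) and 0.653 without control replicate 3 and high IOP replicate 1. This was not particular to Car14. With the same score r was 0.775 for Car2 (permutation p = 0.0214, adjusted p = 0.279) and 0.691 for Car9 (permutation p = 0.0399, adjusted p = 0.341). Without the same arrays these were 0.012 and -0.139.

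Car4, which is tethered to the outer face of the membrane and marks the capillaries of the choroid, was dim. Its brighter probe set (1418094_s_at) read 100.5, 114, 89.5, 96.7 and 47.2 on the control arrays and 73.5, 62.9, 108, 72.9 and 104 on the high IOP arrays. Control replicate 5, which also had the lowest Car12 signal and the lowest pigment epithelium score, was the lowest. Its log2 fold change was -0.06 (interval -0.50 to 0.38, limma adjusted p = 0.960) and that of the other probe set (1448949_at, lowest on control replicate 5 too) -0.10, with an r of 0.771 between them. The r of Car4 with the pigment epithelium score was 0.674 (permutation p = 0.0345, adjusted p = 0.341; rho = 0.406, permutation p = 0.246), and 0.314 without control replicates 1 and 5. With the score of 13 endothelial genes it was 0.320 (permutation p = 0.369, adjusted p = 0.726; rho = 0.188, permutation p = 0.606). Fbxo4 (r = 0.915), Vamp4 (0.878) and Klf7 (0.871) were most like it.

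Car9, a transmembrane enzyme whose gene is a standard target of the hypoxia-inducible factor HIF-1, was near the dim end of the arrays. Its signal (1427013_at) was 40.6, 45.4, 55.2, 59.7 and 50.4 on the control arrays and 26.4, 46.0, 43.1, 54.6 and 41.5 on the high IOP arrays. High IOP replicate 1 was the lowest, and the others overlapped with the controls. High IOP minus control came to -0.20 on the log2 scale (interval -0.50 to 0.10, limma adjusted p = 0.849), and -0.09 without high IOP replicate 1. On this scale, with 16 added to signals of this size, changes are understated, and with 1 added the value was -0.27. Whether the probe set lay above background is unknown, as no detection calls were used. Fbxl20 (r = 0.916), U2surp (0.911) and Hacl1 (0.906) had the most similar patterns.

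Other HIF-1 targets were measured as 19 of 23 listed genes. Of these, 15 were below 0 and 4 above, where 52.7% of all genes were below 0. The median was -0.05, against -0.01 for all genes. The limma adjusted test was passed by 0 (0% of all genes), and 0 had an unadjusted p under 0.05 (3.97% of all genes). Whether the list moved as a set was not tested. The 4 genes with the smallest p are named next. Vegfa, a growth factor of blood vessels, stood at -0.31 on the log2 scale (interval -0.81 to 0.20), the collagen hydroxylase gene P4ha1 at -0.22, the growth-inhibitory gene Ddit4 at -0.15 and the oxygen sensor gene Egln1 at -0.08. The summed signal of all 19 measured targets lay between 96716 and 106782 on all 10 arrays.

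The windows before the start sites of Car9 and Car14 are shown because they hold the core letters of a hypoxia response element. That core was searched as ACGTG and GCGTG on both strands, which 38.6% of all windows hold in at least 1 place. In Car9 (chr4:43506776-43507025, plus strand) ACGTG lies on the other strand from -18 to -14 relative to the start, and in Car14 (chr3:95904686-95904935, minus strand) from -7 to -3. Capitals mark these letters, read on the gene's strand as CACGT, and TAATCC in Car14. A further window, of Car11 (chr7:45699554-45699803, plus strand), held GCGTG on the other strand at -218 to -214. Another window of Car11 (chr7:45699717-45699966, plus strand) and those of Car4 and Car12 held neither core. A match is a description of the letters and not a site of binding.
Car9: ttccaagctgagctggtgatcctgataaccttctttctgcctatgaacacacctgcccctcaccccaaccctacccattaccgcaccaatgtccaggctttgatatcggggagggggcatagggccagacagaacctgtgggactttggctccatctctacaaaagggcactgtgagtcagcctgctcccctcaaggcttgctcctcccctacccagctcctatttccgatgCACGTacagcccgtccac
Car14: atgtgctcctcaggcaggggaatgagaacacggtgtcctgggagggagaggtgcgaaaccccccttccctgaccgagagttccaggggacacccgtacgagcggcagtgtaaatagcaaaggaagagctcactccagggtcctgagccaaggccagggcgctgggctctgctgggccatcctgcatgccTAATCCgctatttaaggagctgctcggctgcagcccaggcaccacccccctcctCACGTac

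Car8 and Car11 encode the related proteins without catalytic activity. Car8, known from cerebellar Purkinje cells as a partner of the inositol trisphosphate receptor, read 269.8, 204, 244, 223 and 172 on the control arrays and 149.7, 192, 259.8, 245 and 212 on the high IOP arrays (1427482_a_at). High IOP replicate 1 was the lowest, and the groups overlapped. Its log2 fold change was -0.08 (interval -0.42 to 0.27, limma adjusted p = 0.919). The dimmer probe set (1424958_at) read 168, 89.1, 90.0, 86.6 and 76.2 on the control arrays and 77.3, 102, 114, 136 and 132 on the high IOP arrays. There control replicate 1 was the highest and the log2 fold change was 0.15 (interval -0.29 to 0.58), so the probe sets differed in sign, with an r of 0.711 between them. Its r with the score of 10 retinal ganglion cell genes was 0.704 (permutation p = 0.0224, adjusted p = 0.279; rho = 0.830, permutation p = 0.00498) and 0.681 without control replicate 1 and high IOP replicate 4. With the score of 13 endothelial genes it was 0.747 (permutation p = 0.0134, adjusted p = 0.214; rho = 0.794, permutation p = 0.00859), and 0.564 without control replicate 1 and high IOP replicate 3. Hps3 (r = 0.948), Sri (0.928) and Azin1 (0.921) were most like it.

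Car11, a secreted relative, was the steadiest member. It read 1395, 1579, 1549.5, 1464 and 1398 on the control arrays and 1347, 1416, 1328, 1543 and 1371 on the high IOP arrays (1424379_at), a span of 1.19-fold. Only 5.44% of genes had a smaller spread within groups. The group means were 1477 ± 84.8 (SD, n = 5) for control and 1401 ± 85.7 (SD, n = 5) for high IOP tissue, and the log2 fold change was -0.08 with the narrowest interval of the 8, from -0.24 to 0.09 (limma adjusted p = 0.849). Its r with the score of 12 astrocyte genes was 0.890 (permutation p = 0.00213, adjusted p = 0.0795; rho = 0.648, permutation p = 0.0489) and 0.787 without control replicate 2 and high IOP replicate 4. The summed astrocyte signal ran from 76425 to 83651 in control and from 73355 to 82588 in high IOP tissue. The correlation did not pass the adjustment, but it did with equal array medians (r = 0.902, permutation p = 0.00036, adjusted p = 0.0134) and on deviations from the group means (r = 0.896, permutation p = 0.00109, adjusted p = 0.0325). It was weaker after quantile normalization (r = 0.746, permutation p = 0.0141, adjusted p = 0.226) and with the mean over probe sets (r = 0.721, permutation p = 0.0149, adjusted p = 0.238). With the endothelial score r was -0.387 (permutation p = 0.265, adjusted p = 0.648; rho = -0.442, permutation p = 0.204), but -0.888 (permutation p = 0.00062, adjusted p = 0.0174) with equal array medians and -0.863 (permutation p = 0.00123, adjusted p = 0.0459) after quantile normalization. With the score of 7 melanin genes, r of Car11 was -0.679 (permutation p = 0.0281, adjusted p = 0.315). Spearman's rho was -0.612 (permutation p = 0.0668), and r was -0.693 without control replicates 1 and 2. The most similar genes were S100a4 (r = 0.954), Klc1 (0.907) and Cog2 (0.902).

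The 8 genes did not vary as 1 group over the arrays. Of the 28 pairs among them 0 passed the adjusted test and 2 had an unadjusted permutation p under 0.05. The highest r was that of Car8 with Car14, 0.816 (permutation p = 0.00437, adjusted p = 0.122; rho = 0.648, permutation p = 0.0501), which was 0.372 without control replicate 5 and high IOP replicate 1 and 0.940 (permutation p = 0.000185, adjusted p = 0.00517) without high IOP replicate 3. Car4 and Car13 ran in opposite directions (r = -0.697, permutation p = 0.0238, adjusted p = 0.280; rho = -0.697, permutation p = 0.0303), with an r of -0.435 without control replicate 5 and high IOP replicate 2. Of the 112 pairs with the 13 marker scores and the Gapdh ratio, 14 had an unadjusted permutation p under 0.05 and 2 passed, Car2 with myelin and Car12 with the pigment epithelium, by Pearson's r and by Spearman's rho. Without single arrays both passed by r in each case, while by rho the adjusted p reached 0.084 for Car2 and 0.172 for Car12, and for Car2 it was 0.120 on deviations from the group means.

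**Figure D4:**
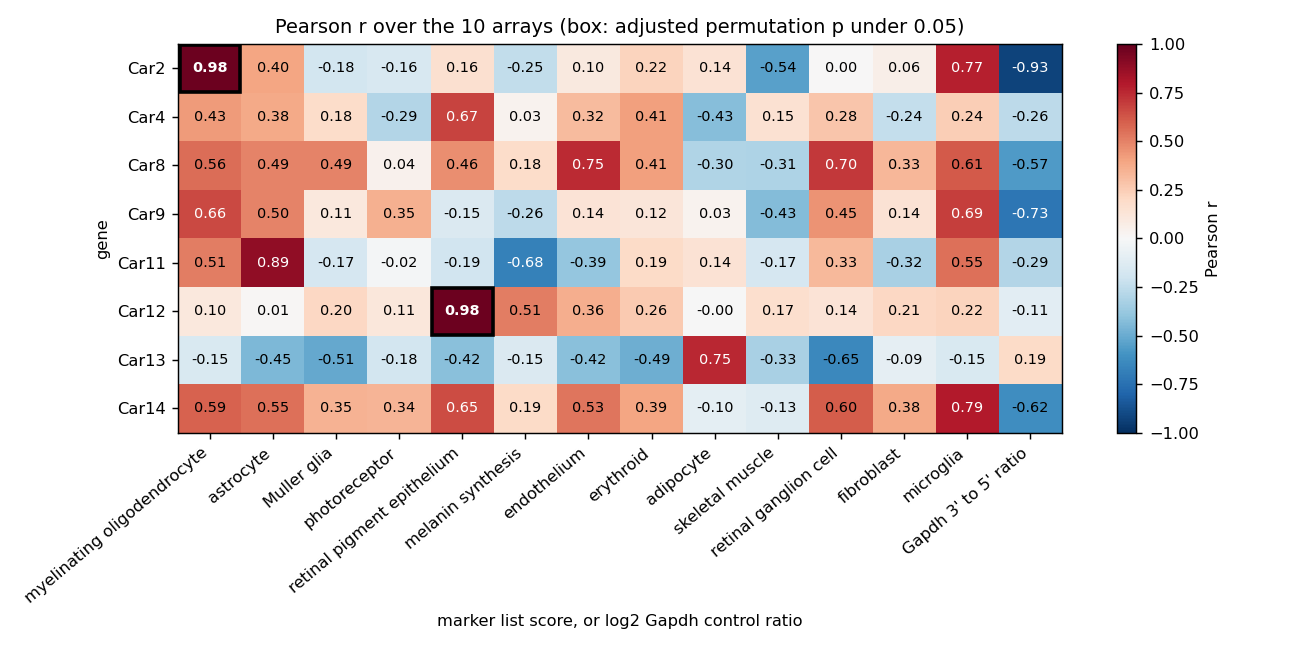
Pearson r over the 10 arrays between each carbonic anhydrase (rows) and 13 marker list scores and the log2 Gapdh 3' to 5' ratio (columns), red for positive and blue for negative values. Boxes mark the 2 pairs past an adjusted permutation p of 0.05, at 0.977 for Car2 with myelin and 0.983 for Car12 with the pigment epithelium.

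The remaining carbonic anhydrase genes of the mouse, 8 of 8 measured, were mostly dim. Of them 5 were above 0 and 3 below (median 0.06), where 52.7% of all genes were below 0. The limma adjusted test was passed by 0 (0% of all genes), and 0 had an unadjusted p under 0.05 (3.97% of all genes). Car3, an abundant enzyme of muscle and fat, read 1175 on high IOP replicate 2 and 109 to 356 on the other arrays. The adipocyte score was highest on that same array (0.53, against -0.24 to 0.15 elsewhere), and the summed signal of its 8 measured genes of 10 ran from 568 to 831 in control and from 489 to 927 in high IOP tissue. The genes of this score were dim, and the part of adipocytes in the Car3 signal was not tested. Between groups Car3 stood at -0.02 on the log2 scale. Car6, the secreted enzyme of saliva, ran from 143 to 579 with its highest value on control replicate 1 and had a log2 fold change of -0.27. Car10, a catalytically inactive relative, ran from 49.0 to 278 with its highest value on high IOP replicate 4, and stood at 0.09. The mitochondrial enzymes Car5a and Car5b had log2 fold changes of -0.36 and 0.13, and Car1, Car7 and Car15 of 0.10, 0.03 and 0.26.

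The transporters that carry bicarbonate, protons and lactate beside these enzymes did not pass the test either. Across all genes, 52.7% were below 0, 0% passed the limma adjusted test and 3.97% had an unadjusted p under 0.05. Of 13 measured bicarbonate transporter genes 9 were above 0 and 4 below (median 0.08), with 0 past the limma adjusted test. The chloride-bicarbonate exchanger Slc26a3 had a log2 fold change of 0.26 at an unadjusted p under 0.05 (limma adjusted p = 0.849) from dim signals of 30.2 ± 6.47 (SD, n = 5) and 39.1 ± 4.05 (SD, n = 5). Slc26a6, Slc4a3 and Slc26a1 stood at 0.33, 0.21 and 0.11. Of 6 genes of proton-lactate cotransport 2 were above 0 and 4 below (median -0.02). The carrier genes Slc16a7, Slc16a1 and Slc16a3 stood at -0.49 (interval -1.01 to 0.03), -0.24 and 0.08, and the chaperone gene Bsg at -0.01. Of 17 subunit and accessory genes of the vacuolar proton pump 7 were above 0 and 10 below (median -0.02), with Atp6v1h at -0.40, Atp6v1a at -0.24, Atp6v1d at 0.13 and Atp6v0e at -0.11. Of the 8 listed sodium-proton exchangers only Slc9a8 had a probe set of its own, with a log2 fold change of 0.20, and the others were not analysed here. None of these named genes but Slc26a3 had an unadjusted p under 0.05.

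**Figure D5:**
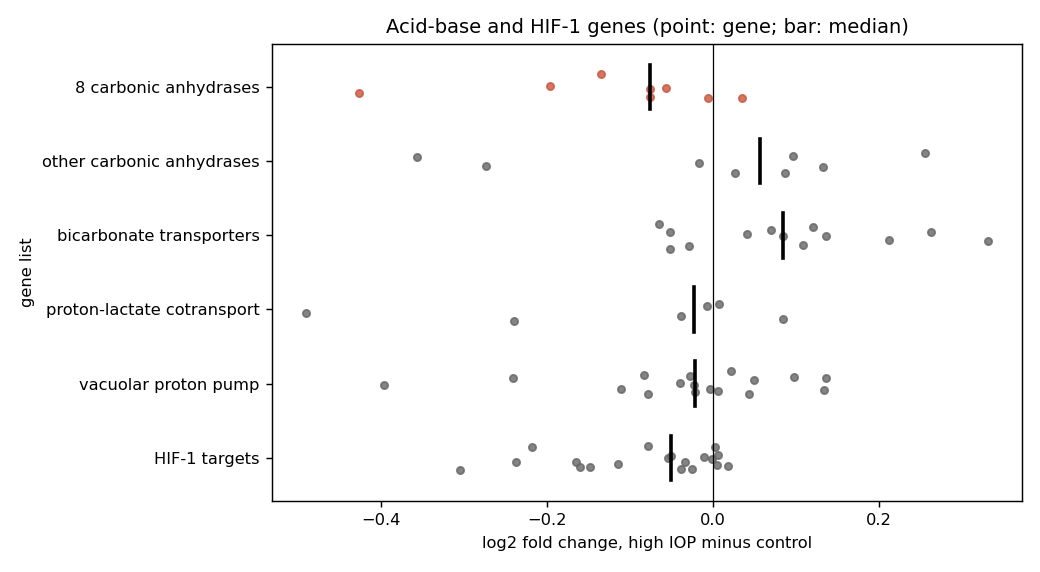
Log2 fold change (high IOP minus control, horizontal axis) of the 8 carbonic anhydrases and of 5 related gene lists, 1 point per gene and a bar at the median. The medians lie between -0.08 and 0.08, and 0 genes passed the adjusted test.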

How the data were processed

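Values were the intensity of each of 22690 probe sets on 10 arrays, in a table the authors deposited with linear values. Per the labels' protocols, 30 ng of total RNA (RIN above 9.1) was amplified and biotin labelled; how the authors summarised and scaled the arrays is not given in the sources used here. Members and gene lists were chosen with earlier results of these data known. Signals were taken as log2(signal + 16). Of 22626 probe sets that are not controls 20380 had 1 gene symbol, 691 several and 1555 none; for each of 12393 genes the probe set with the highest mean was used. Groups were compared with limma 3.58.1 (R 4.3.3, lmFit and eBayes, no covariate), adjusted over all genes or all probe sets, and the fit was tested on simulated data. Correlations used two-sided permutation tests with 100000 resamples, or all orders with 9 arrays, adjusted over each family. Named were all members, the 3 genes most like each by r among genes at or above the median mean, all other carbonic anhydrases, and up to 4 genes with the smallest p of each pathway list. The r of the most similar genes were selected as the highest and were not tested. The labels call the pools biological replicates, but do not say that equal numbers share mice. Promoter windows came from RefSeq (GRCm38.p6). Python 3.11.15 with NumPy 2.4.6, pandas 2.3.3 and Matplotlib 3.10.9 was used. Alternatives changed the normalization, the pseudocount, the choice of probe set, the filter on dim genes, array weights, the block, covariates and the arrays included.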

Additional observations from a re-analysis of the deposited data

Results flagged for a closer look

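The 11 probe sets and the 8 other carbonic anhydrase genes gave 38 groups of 5 arrays. Of these, 3 held 1 array far from the rest of its group, with a gap over range above 0.71. About 1 in 20 groups of normal values pass that limit by chance. The limit was applied to linear signals, so this rate is a rough guide. The 3 are listed as a description and not as more than chance gives. The dimmer probe set of Car8 read 168 on control replicate 1 and 76.2 to 90.0 on the other controls. Car12 read 297 on high IOP replicate 5 and 94.6 to 148 on the other high IOP arrays, and the pigment epithelium score of that array was 0.84. Car3 read 1175 on high IOP replicate 2 and 109 to 220 on the other high IOP arrays, and the adipocyte score of that array was 0.53.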

How the results depend on the processing

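No gene passed the adjusted test under the other normalizations, pseudocount, mean over probe sets, filters, weights and covariates tried, or without any 1 array. No carbonic anhydrase probe set that was tested passed under these settings either; the mean over probe sets was not run at that level. Whether equal replicate numbers share mice is not given in the labels, and the values did not settle it. Same-numbered arrays had correlations of their deviations from -0.08 to 0.21, over 0.1 in 2 of 5 pairs, and 2 of 5 arrays were most like their own number. With the replicate number as a block, fixed or random, limma called 0 genes.

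The direction of small differences depended on the setting, and the cause was not tested. The log2 fold change of Car12 became 0.042 after quantile normalization, 0.021 with equal array medians, 0.033 with a pseudocount of 1, 0.31 with array weights and 0.069 with the myelin score as covariate. Array weights also gave -0.032 for Car13 and 0.033 for Car14. The myelin covariate gave 0.055 for Car4, 0.033 for Car8 and 0.0059 for Car14. The mean over probe sets gave 0.035 for Car8 and -0.00048 for Car13. Without single arrays or replicate numbers the log2 fold changes ran from -0.30 to 0.11 for Car4, -0.16 to 0.10 for Car8, -0.65 to 0.37 for Car12, -0.12 to 0.16 for Car13, -0.33 to 0.087 for Car14 and -0.60 to -0.15 for Car2. Filters on dim genes dropped Car4 and Car9 at 25% and also Car8 and Car12 at 50%, so they gave no value there.

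Of the 112 pairs with marker scores, 4 passed by Pearson's r with equal array medians, 4 on deviations from group means and 3 after quantile normalization, against 2. Car2 with myelin and Car12 with the pigment epithelium passed by r under every alternative and without any 1 array, but not always by rho. Those added were Car11 with astrocytes (equal medians, deviations), Car11 with endothelium (equal medians, quantile) and Car2 with the Gapdh ratio (deviations). Pairs among the 8 genes that passed numbered 0 to 1 without single arrays. The pigment epithelium covariate was chosen after seeing the data. The intervals of Car2 and Car12 extended past 2-fold. No detection calls were used, so dim values may lie at background.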
